A study of Rattus norvegicus with 12 samples.

Results

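The genes described here encode the proteins that bring pyruvate into the mitochondrion, convert it to acetyl-CoA or oxaloacetate, and oxidise it in the tricarboxylic acid (TCA) cycle. They were chosen by name: 33 genes were listed, and 32 of them were found by symbol among the 19730 genes of the deposited ovarian RNA-seq table. Idh3b was not analysed here. All 32 averaged at least 1 FPKM (fragments per kilobase of transcript and per 1e6 mapped fragments) over the 12 libraries, so that no member was lost to the filter on low values, which 13430 genes passed.

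The RNA came from ovaries of wild-type Sprague Dawley rats in postnatal week 15, with 1 library per rat and 4 rats in each of 3 groups. The Control group was untreated and ate standard pellets. The PCOS group was a model of polycystic ovary syndrome, made by feeding a high-fat diet (HFD) and giving letrozole, an inhibitor of the aromatase that turns androgens into estrogens, for 30 days. The PCOS-MV group had the same induction and was then given mogroside V (MV), a sweet triterpene glycoside of monk fruit, for 30 days. All rats were killed at the end of this period, so PCOS ovaries were taken about 30 days after letrozole had stopped. MV was given by oral gavage, and the study describes no vehicle gavage of the PCOS group, so MV and gavage cannot be told apart. PCOS vs Control asks what the model did to the ovary, and PCOS-MV vs PCOS asks what MV did in the model. Both comparisons use the same 4 PCOS libraries, so their values are given side by side and are not independent of each other. Diet and drug were given together, so their effects cannot be told apart. Rats were counted as PCOS models by vaginal smears late in induction that remained in metestrus and diestrus, a criterion not applied to the Control group. By the study's animal numbers, every induced rat went on into the PCOS or the PCOS-MV group. How the sequenced rats were chosen from each group is not given. In whole-organ RNA, fewer cells of a type and less RNA per cell cannot be told apart.

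Estimated from the steps between low FPKM values, the libraries held 30.4 to 37.1 M fragments each (M, 1e6). At that depth the shortest member, Mpc2, rested on about 72 to 273 fragments per library and Idh1 on up to about 51737. Control replicate 3 stood apart, with correlations of log2(FPKM + 1) to its group of 0.954 to 0.970 against up to 0.987 among the others, and with summed smooth muscle markers at 888 FPKM against 328 to 482 FPKM in the other Control libraries. Calls of the 32 genes in PCOS vs Control that turn on it are given with and without it.

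As background, pyruvate enters mitochondria through a carrier built of the products of Mpc1 and Mpc2. The pyruvate dehydrogenase complex then turns it into acetyl-CoA, and is switched off by kinases (Pdk genes) that phosphorylate it and on by phosphatases (Pdp genes). The TCA cycle oxidises acetyl-CoA and yields NADH for the respiratory chain. Those isocitrate dehydrogenases and malic enzymes that are NADP-linked yield NADPH. In the ovary, granulosa cells are known to hand pyruvate to the oocyte, and steroid-making cells, most of all those of the corpus luteum, use NADPH and mitochondrial electron transfer to cleave cholesterol.

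Promoter sequence is shown for Idh1, Dlst, Sucla2 and Idh3g, the dehydrogenase and ligase genes with the widest change in PCOS vs Control, 3 of them lower and 1 higher in PCOS, so that the start regions of genes that moved apart can be compared. The RefSeq promoter table of the GRCr8 assembly matched 28 of the 32 genes, and the 250 bases upstream of the start are printed in the direction of transcription, with matches to 6 motifs in capitals. Idh1 is at chr9:74049475-74049724 on the minus strand, Dlst at chr6:110489456-110489705 on the plus strand, Sucla2 at chr15:55161644-55161893 on the plus strand and Idh3g at chrX:156675483-156675732 on the minus strand.
Idh1: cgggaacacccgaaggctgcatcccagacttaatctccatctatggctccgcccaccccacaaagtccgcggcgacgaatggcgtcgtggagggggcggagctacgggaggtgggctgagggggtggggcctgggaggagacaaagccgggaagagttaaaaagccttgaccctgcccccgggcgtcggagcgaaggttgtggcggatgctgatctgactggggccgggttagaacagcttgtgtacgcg
Dlst: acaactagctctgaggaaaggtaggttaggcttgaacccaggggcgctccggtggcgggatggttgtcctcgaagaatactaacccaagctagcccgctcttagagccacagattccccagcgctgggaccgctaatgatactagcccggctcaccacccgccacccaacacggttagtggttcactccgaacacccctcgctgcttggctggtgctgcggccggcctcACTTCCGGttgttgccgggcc
Sucla2: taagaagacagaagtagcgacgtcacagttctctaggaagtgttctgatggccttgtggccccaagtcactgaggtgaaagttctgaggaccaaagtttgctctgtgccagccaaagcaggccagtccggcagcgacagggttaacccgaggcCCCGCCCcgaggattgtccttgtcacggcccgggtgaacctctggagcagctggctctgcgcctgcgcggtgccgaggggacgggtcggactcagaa
Idh3g: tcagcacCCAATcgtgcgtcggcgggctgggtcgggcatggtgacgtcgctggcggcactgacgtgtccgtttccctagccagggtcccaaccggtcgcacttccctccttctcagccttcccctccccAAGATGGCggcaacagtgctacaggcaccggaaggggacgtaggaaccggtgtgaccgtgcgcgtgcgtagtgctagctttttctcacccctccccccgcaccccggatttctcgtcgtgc

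The capitals mark an ETS motif (CCGGAAGT, on the opposite strand) in Dlst, a GC box (GGGCGGG, on the opposite strand) in Sucla2, and a CCAAT box together with a YY1 motif (AAGATGGC) in Idh3g, and Idh1 held none of the 6. Both strands were searched. A CCAAT box was found in 15 of the 28 member promoters against 34.0% of all 33469 promoters, and a GC box in 10 of 28 against 21.0%. The members gave 1 promoter each and are all expressed, whereas all 33469 entries were counted without a limit to expressed genes. The shares thus come from unlike sets. The ETS motif was in the promoters of Dlst and Mdh2 (3.1% of all promoters), the YY1 motif in that of Idh3g (1.63%), and the cyclic AMP response element TGACGTCA in those of Ogdh and Mdh2 (1.59%). The half-site motif of the estrogen-related receptors and of the steroidogenic factor SF-1, CAAGGTCA, was in 0 of the 28 and in 1.33% of all promoters. At so low a share, its absence from 28 promoters tells nothing about the members. These matches describe letters in a window and not bound sites.

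In PCOS vs Control, most steps of pyruvate oxidation had at least 1 gene lower in PCOS, led by Idh1, Dlst, Mpc2 and Sucla2, while Idh3g and Pdk2 were higher. Of the 32 genes, 14 were downregulated and 2 upregulated at an adjusted p under 0.05 (limma), which is 16 of 32, where 27.4% of all genes tested were called, 15.6% lower and 11.9% higher. The median log2 fold change of the 32 genes was -0.34, against -0.03 over all genes tested, and 25 of the 32 had a negative value. The 4 PCOS values lay wholly outside the 4 Control values for 16 members, where this held for 31.0% of all genes, and 19 members had an unadjusted p under 0.05, against 39.4%. Without Control replicate 3 the count of called members was 19: Cs, Fh, Suclg1 and Pdp2 were then called as lower in PCOS, and Pdk3 was not called. Summed over the 32 genes, the level was 1923 to 2604 FPKM in the Control libraries and 1455 to 1606 FPKM in the PCOS libraries, without overlap. With Idh1 and Me1, the most abundant members, left out of the sum, it was 1319 to 1684 against 1094 to 1275 FPKM.

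In PCOS-MV vs PCOS, genes of the carrier, the pyruvate dehydrogenase complex and the oxidative steps were higher after MV. In all, 11 genes were upregulated and 2, Pdk2 and Idh3g, were downregulated. These 13 are 40.6% of the members, against 25.7% of all genes tested, of which 14.3% were higher and 11.4% lower. The median log2 fold change was 0.23, against 0.03 over all genes, and 22 of the 32 values were positive. The 13 called members were also the 13 whose PCOS-MV and PCOS values did not overlap, where this held for 30.0% of all genes, and 17 members had an unadjusted p under 0.05, against 38.5%. Across the PCOS-MV libraries the summed level of the members was 1734 to 2683 FPKM.

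**Figure D1:**
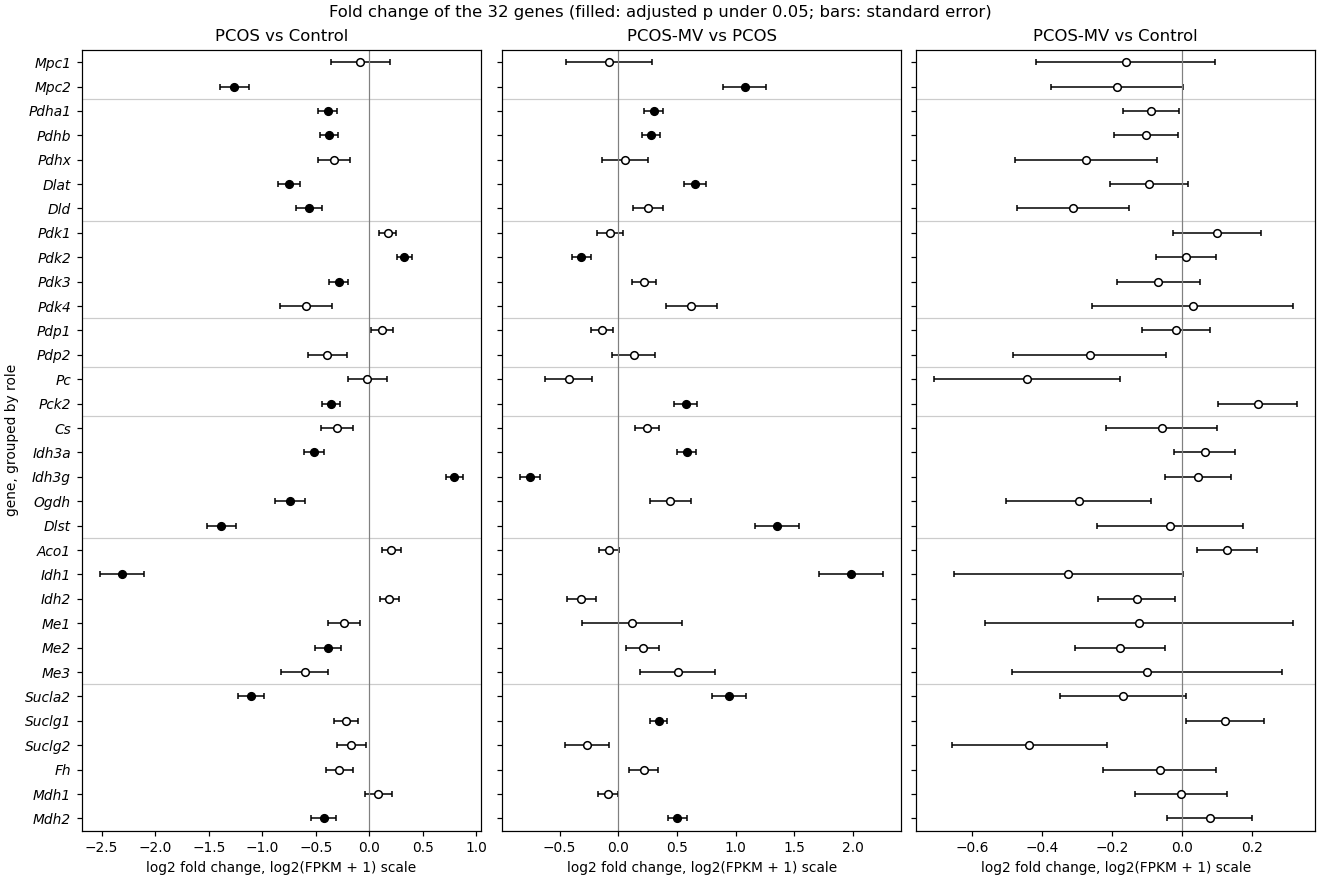
Log2 fold change on the log2(FPKM + 1) scale (horizontal axis, whose range differs between the panels) of the 32 genes, grouped by role from the pyruvate carrier at the top to malate dehydrogenase at the bottom, for PCOS vs Control, PCOS-MV vs PCOS and PCOS-MV vs Control. Points are limma estimates from 4 libraries against 4, bars are standard errors, and filled points have an adjusted p under 0.05: 16 in the left panel, 13 in the middle and 0 on the right.

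The cell types that make up the ovary also read differently between the groups. Of the 8 luteal markers listed, 6 were found, and Star, Cyp11a1, Scarb1 and Ptgfr were lower and Lhcgr higher in PCOS. In PCOS-MV vs PCOS, Star and Ptgfr were called as higher and Lhcgr as lower, and Cyp11a1, Scarb1 and Prlr were not called. The luteal markers summed to 4279 to 8015 FPKM in Control, 1828 to 3467 in PCOS and 2961 to 6929 in PCOS-MV. All 8 granulosa markers were found. In PCOS vs Control 5 were called as higher (Fshr, Cyp19a1, Inha, Inhba and Gja1), where 27.4% of all genes were called. In PCOS-MV vs PCOS 4 were lower (Fshr, Cyp19a1, Inha and Gja1), where 25.7% of all genes were called. Amh and Nr5a2 went the other way without being called, with log2 fold changes of -0.81 and 0.62 (Amh) and -0.77 and 0.65 (Nr5a2). The granulosa sum was 849 to 1184 FPKM in Control, 1489 to 2108 in PCOS and 805 to 1331 in PCOS-MV. Of 5 theca markers 4 were found, and 3 of them (Insl3, Cyp17a1 and Aldh1a1) were higher in PCOS vs Control and lower in PCOS-MV vs PCOS, with sums of 86.9 to 153, 1641 to 3233 and 41.2 to 163 FPKM, while the other, Ptch1, fell by 0.43 in log2 units (standard error 0.12, adjusted p = 0.0293) in PCOS vs Control. Endothelial markers (4 of 5 found) summed to 74.9 to 92.7, 48.4 to 58.9 and 66.3 to 89.6 FPKM, and adipocyte markers (6 of 6) to 25.4 to 79.5, 9.12 to 14.1 and 11.9 to 47.5 FPKM. Of the endothelial markers Cdh5, Kdr and Tek were lower and Vwf was higher in PCOS vs Control, and Cdh5 and Kdr were higher in PCOS-MV vs PCOS. The adipocyte genes Cidec and Lep were listed at 0 in 2 PCOS libraries. In PCOS vs Control the 4 adipocyte markers tested (Adipoq, Lpl, Fabp4 and Cidec) were called as lower, where 15.6% of all genes were. Of the adipocyte markers, Fabp4 alone was called in PCOS-MV vs PCOS, with means of 18.0 (Control), 2.15 (PCOS) and 19.7 FPKM (PCOS-MV). Adipoq averaged 13.2 FPKM in Control, 1.52 in PCOS and 1.27 in PCOS-MV. Plin1, Cidec and Lep also stayed below Control in PCOS-MV. Summed leukocyte markers (6 of 6) were between 47.0 and 70.2 FPKM in every library, oocyte markers (7 of 8) between 14.0 and 25.5, and smooth muscle markers (5 of 5) between 324 and 888. Within the leukocyte list Adgre1 and Csf1r were called as higher in PCOS vs Control and lower in PCOS-MV vs PCOS, and Cd68 rose by 0.77 in log2 units (standard error 0.12, adjusted p = 0.00266) in PCOS-MV vs PCOS. Red blood cell markers (4 of 5) summed to 944 to 1469, 516 to 1411 and 305 to 791 FPKM. Of these, Hba-a2 alone was called, falling by 1.36 in log2 units (standard error 0.28, adjusted p = 0.00935) in PCOS-MV vs PCOS. In PCOS-MV vs Control the 4 markers had an unadjusted limma p under 0.05, where 8.5% of all genes did, without being called. Markers of ciliated oviduct epithelium (2 of 4) were at 10.4 FPKM in Control replicate 3 and at 1.59 to 3.28 in the other 11 libraries. The part of these shifts in cell type markers in the results on the 32 genes was not tested.

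The mitochondrial pyruvate carrier differed between its subunit genes. Mpc2 (ENSRNOG00000003150) read 20.2, 15.2, 14.5 and 18.0 FPKM in Control replicates 1 to 4, 8.15, 5.91, 6.20 and 5.77 in PCOS and 17.9, 10.9, 19.2 and 12.4 in PCOS-MV. Every PCOS library was below every library of the other 2 groups. Mpc2 fell by 1.26 in log2 units (standard error 0.13, adjusted p = 2.55e-04) in PCOS vs Control, a 2.61-fold lower mean, and rose by 1.08 in log2 units (standard error 0.19, adjusted p = 0.00422) in PCOS-MV vs PCOS. Its partner Mpc1 read 11.9, 11.7, 11.5 and 13.5 FPKM in Control, 8.14, 22.6, 8.56 and 10.4 in PCOS and 13.4, 13.2, 13.5 and 5.42 in PCOS-MV, and was called in neither comparison, with log2 fold changes of -0.08 (standard error 0.27, adjusted p = 0.848) and -0.08 (standard error 0.36, adjusted p = 0.898). PCOS replicate 2 of Mpc1 was far above the other PCOS libraries and PCOS-MV replicate 4 far below the other PCOS-MV libraries. Without PCOS replicate 2, Mpc1 fell by 0.39 in log2 units against Control (adjusted p = 0.0355). The ratio of Mpc2 to Mpc1 within a library, computed after their values were seen, was 1.27 to 1.70 in Control, 0.262 to 1.001 in PCOS and 0.8285 to 2.29 in PCOS-MV, with PCOS below Control and overlapping PCOS-MV.

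The pyruvate dehydrogenase complex is built of a decarboxylase (Pdha1, Pdhb), an acetyltransferase core (Dlat) held to its dehydrogenase by a binding protein (Pdhx), and that dehydrogenase (Dld), which other 2-oxoacid dehydrogenase complexes share. All 5 genes had negative values in PCOS vs Control, and 4 of them were called. The core gene Dlat changed most, with 36.0, 31.7, 26.3 and 29.1 FPKM in Control, 19.5, 17.6, 16.1 and 18.3 in PCOS and 32.6, 25.8, 29.0 and 27.3 in PCOS-MV. The PCOS values of Dlat lay below all others. Dlat fell by 0.75 in log2 units (standard error 0.10, adjusted p = 0.00111) in PCOS vs Control and rose by 0.65 in log2 units (standard error 0.09, adjusted p = 0.00156) in PCOS-MV vs PCOS. The decarboxylase subunits moved less. For Pdha1 the libraries gave 51.1, 46.3, 55.5 and 52.6 FPKM in Control, 43.5, 39.4, 35.0 and 38.1 in PCOS and 46.5, 45.4, 50.7 and 50.2 in PCOS-MV. For Pdhb they gave 41.9, 37.5, 33.8 and 34.3 FPKM in Control, 30.8, 27.3, 27.2 and 27.1 in PCOS and 37.6, 31.6, 34.3 and 33.3 in PCOS-MV. Neither gene's PCOS values overlapped those of the other groups, although the gap was under 2 FPKM for both. In PCOS vs Control, Pdha1 fell by 0.39 in log2 units (standard error 0.09, adjusted p = 0.0111) and Pdhb fell by 0.38 in log2 units (standard error 0.09, adjusted p = 0.0123). In PCOS-MV vs PCOS, Pdha1 rose by 0.30 in log2 units (standard error 0.08, adjusted p = 0.0271) and Pdhb rose by 0.27 in log2 units (standard error 0.08, adjusted p = 0.0310), calls that were kept in 3 and in 2 of the 8 runs that left out 1 library.

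Dld was lower in PCOS and did not pass the test after MV. Its values were 111, 96.5, 74.2 and 91.5 FPKM in Control, 69.4, 59.5, 60.2 and 59.4 in PCOS and 92.5, 61.1, 79.3 and 67.4 in PCOS-MV, so that PCOS-MV overlapped both other groups. Dld fell by 0.57 in log2 units (standard error 0.12, adjusted p = 0.00901) in PCOS vs Control, and its log2 fold change in PCOS-MV vs PCOS was 0.25 (standard error 0.13, adjusted p = 0.183). Pdhx was called in neither comparison, at 20.9 ± 3.90, 16.4 ± 2.83 and 17.4 ± 5.06 FPKM (mean ± SD, n = 4). RefSeq lists a pseudogene of Dlat and of Dld, as it does for Pck2, Fh, Mdh1 and Mdh2, and Pdha1 overlaps an unnamed gene on the opposite strand, so reads of these genes could have been split or shared in the authors' counting and their levels are uncertain.

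The kinases that switch the complex off did not move as a group. Pdk2 was the kinase gene upregulated in PCOS, at 16.2, 13.9, 15.6 and 15.3 FPKM in Control, 20.3, 17.9, 19.7 and 19.6 in PCOS and 16.1, 14.4, 14.1 and 17.0 in PCOS-MV. All 4 PCOS values were above all others. Pdk2 rose by 0.33 in log2 units (standard error 0.07, adjusted p = 0.0101) in PCOS vs Control, a 1.27-fold higher mean, and fell by 0.32 in log2 units (standard error 0.08, adjusted p = 0.0211) in PCOS-MV vs PCOS, where the call was lost in 4 of 8 runs that left out 1 library. Pdk3 went the other way, at 12.4, 11.7, 12.3 and 15.1 FPKM in Control, 10.9, 10.6, 9.67 and 10.1 in PCOS and 10.9, 14.1, 10.5 and 13.4 in PCOS-MV. Pdk3 fell by 0.29 in log2 units (standard error 0.09, adjusted p = 0.0416) in PCOS vs Control, and its log2 fold change was 0.22 (standard error 0.10, adjusted p = 0.154) in PCOS-MV vs PCOS, where the groups overlapped. The Pdk3 call in PCOS vs Control was kept in 1 of 8 runs that left out a library, with an adjusted p of 0.0519 without Control replicate 3.

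Pdk4, the kinase known to rise with fasting and fatty acid supply, had 9.20, 20.4, 18.2 and 19.9 FPKM in Control, 8.30, 12.1, 12.7 and 9.17 in PCOS and 10.7, 16.3, 19.4 and 22.1 in PCOS-MV. Its log2 fold changes, -0.59 (standard error 0.25, adjusted p = 0.109) and 0.62 (standard error 0.22, adjusted p = 0.0697), did not pass the threshold. Control replicate 1 and PCOS-MV replicate 1 lay within the range of the PCOS libraries. Without Control replicate 1 the first of these values was -0.84 (adjusted p = 0.00513), and without PCOS-MV replicate 1 the other was 0.82 (adjusted p = 0.0121). Pdk1 had log2 fold changes of 0.17 (standard error 0.08, adjusted p = 0.156) and -0.07 (standard error 0.11, adjusted p = 0.667), and its PCOS values, 19.7 to 21.3 FPKM, lay just above those of Control, 15.8 to 19.5 FPKM.

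Neither phosphatase gene was called with all libraries in. Pdp1, the more abundant, read 16.1, 16.8, 15.5 and 19.9 FPKM in Control, 17.4, 18.6, 21.4 and 17.0 in PCOS and 16.1, 16.5, 15.7 and 18.9 in PCOS-MV, and the groups overlapped. Pdp2 had means of 12.1 ± 3.11, 8.83 ± 1.44 and 9.93 ± 2.87 FPKM (SD, n = 4). For Pdp2 the PCOS vs Control log2 fold change was -0.39 (standard error 0.18, adjusted p = 0.143), and without Control replicate 3 it was -0.53 (adjusted p = 0.0429), which is past the threshold. The ratio of the summed kinase genes to the summed phosphatase genes was 1.76 to 2.71 in Control, 2.08 to 2.39 in PCOS and 1.85 to 2.87 in PCOS-MV, with full overlap. The mix of kinases differed more: Pdk2 to Pdk4 was 0.683 to 1.76 in Control, 1.48 to 2.44 in PCOS and 0.726 to 1.51 in PCOS-MV, where Control replicate 1 and PCOS-MV replicate 1 were inside the PCOS range.

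Pyruvate can also be carboxylated to oxaloacetate by pyruvate carboxylase (Pc), and Pck2 encodes the mitochondrial enzyme that turns oxaloacetate into phosphoenolpyruvate. Pc was called in neither comparison, at 14.9 ± 4.22, 14.2 ± 0.609 and 10.7 ± 3.50 FPKM (SD, n = 4), and it overlaps Lrfn4 on the opposite strand. Pck2 read 10.0, 10.7, 12.7 and 10.6 FPKM in Control, 8.65, 8.23, 8.40 and 8.07 in PCOS and 11.8, 14.9, 11.1 and 14.1 in PCOS-MV. The PCOS libraries were the tightest and the lowest. Pck2 fell by 0.36 in log2 units (standard error 0.08, adjusted p = 0.0114) in PCOS vs Control and rose by 0.57 in log2 units (standard error 0.10, adjusted p = 0.00410) in PCOS-MV vs PCOS.

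Of the genes from citrate to succinyl-CoA, Cs, which encodes citrate synthase, was called in neither comparison, at 109 ± 22.4, 86.8 ± 8.12 and 103 ± 11.6 FPKM (SD, n = 4). Cs had a PCOS vs Control log2 fold change of -0.31 (standard error 0.15, adjusted p = 0.165), and without Control replicate 3 it was called, at -0.44 (adjusted p = 0.0228). The subunit genes of the NAD-linked isocitrate dehydrogenase moved in opposite directions. The catalytic subunit gene Idh3a had 34.7, 32.9, 29.5 and 28.2 FPKM in Control, 24.3, 20.8, 19.3 and 22.0 in PCOS and 33.3, 30.0, 34.4 and 33.3 in PCOS-MV. The regulatory subunit gene Idh3g (ENSRNOG00000055572) had 50.3, 46.0, 41.3 and 47.2 FPKM in Control, 88.1, 79.1, 76.9 and 79.2 in PCOS and 50.5, 47.5, 41.5 and 51.4 in PCOS-MV. PCOS was below every other library for Idh3a and above every other library for Idh3g. Idh3a fell by 0.52 in log2 units (standard error 0.09, adjusted p = 0.00438) in PCOS vs Control and rose by 0.58 in log2 units (standard error 0.08, adjusted p = 0.00183) in PCOS-MV vs PCOS. Idh3g rose by 0.79 in log2 units (standard error 0.08, adjusted p = 2.04e-04) in PCOS vs Control, a 1.75-fold higher mean, and fell by 0.75 in log2 units (standard error 0.09, adjusted p = 6.50e-04) in PCOS-MV vs PCOS. Both genes kept their calls in every run that left out 1 library. The deposited table places Idh3g on the plus strand of chromosome X, from 156999826 to 157008733 in coordinates whose build is not given in the sources used here, whereas the promoter table places it on the minus strand of GRCr8.

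The 2-oxoglutarate dehydrogenase complex, which makes succinyl-CoA, had its core gene among the largest changes. Dlst (ENSRNOG00000005061), the succinyltransferase core, read 156, 153, 107 and 131 FPKM in Control, 58.8, 46.2, 47.0 and 54.0 in PCOS and 145, 98.3, 185 and 115 in PCOS-MV. No PCOS library reached 98.3 FPKM, the lowest value of the other groups. Dlst fell by 1.38 in log2 units (standard error 0.14, adjusted p = 1.75e-04), a 2.66-fold lower mean, and rose by 1.35 in log2 units (standard error 0.19, adjusted p = 0.00154) after MV, with no overlap in either comparison (exact two-sided permutation test, p = 0.0286, the smallest that 4 against 4 can give). Ogdh, which encodes the decarboxylase of the complex, read 149, 141, 97.5 and 113 FPKM in Control, 79.2, 76.5, 64.8 and 74.6 in PCOS and 131, 85.8, 119 and 75.8 in PCOS-MV. Ogdh fell by 0.74 in log2 units (standard error 0.14, adjusted p = 0.00511) in PCOS vs Control, and its log2 fold change of 0.44 (standard error 0.17, adjusted p = 0.0950) in PCOS-MV vs PCOS did not pass the threshold. PCOS-MV replicate 4 of Ogdh lay within the PCOS range, and without it the value was 0.58 (adjusted p = 0.0335). In the deposited coordinates Ogdh overlaps Npc1l1 on the opposite strand and Zmiz2 on the same strand, so its level is uncertain.

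A related decarboxylase gene outside the member list, Ogdhl, had the reverse pattern. It stood at 9.95, 8.26, 7.96 and 9.68 FPKM in Control, 33.2, 25.4, 31.2 and 31.5 in PCOS and 11.0, 8.38, 7.11 and 10.2 in PCOS-MV. Ogdhl rose by 1.65 in log2 units (standard error 0.11, adjusted p = 2.14e-05) in PCOS vs Control and fell by 1.63 in log2 units (standard error 0.14, adjusted p = 1.78e-04) in PCOS-MV vs PCOS. Ogdh exceeded Ogdhl 11.7 to 17.1 times in Control, 2.08 to 3.01 times in PCOS and 7.42 to 16.7 times in PCOS-MV. The sum of Ogdh and Ogdhl was 105 to 158 FPKM in Control, 96.0 to 112 in PCOS and 86.0 to 142 in PCOS-MV, so that the groups overlapped. Dlst relative to that sum was 0.986 to 1.07 in Control, 0.454 to 0.523 in PCOS and 1.02 to 1.47 in PCOS-MV, with PCOS below all other libraries. These ratios were computed after the values were seen and are descriptions.

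**Figure D2:**
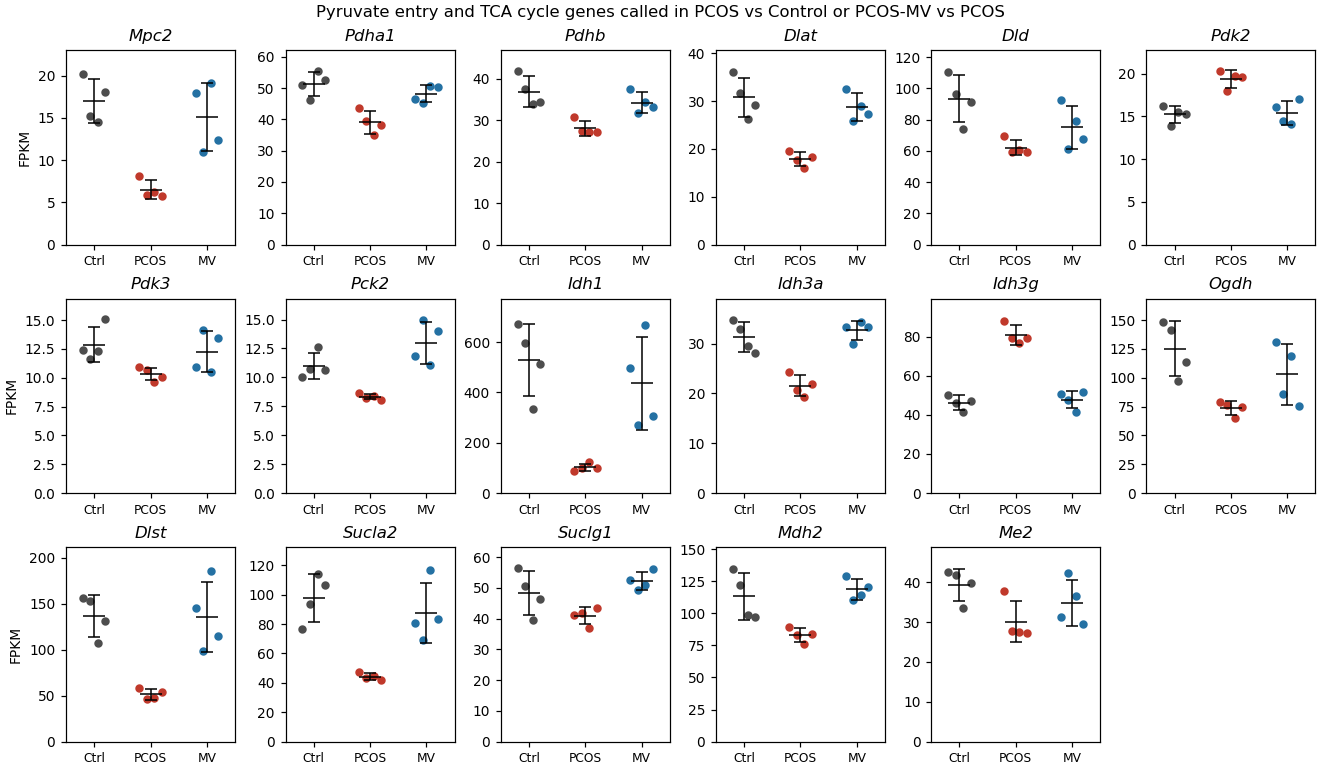
FPKM per library (vertical axes, from 0) of the 17 genes called in PCOS vs Control or in PCOS-MV vs PCOS, in the Control (Ctrl), PCOS and PCOS-MV (MV) groups. Each point is 1 library in the order of replicates 1 to 4, and the black bars are the mean and SD of 4. PCOS is the lowest group for 15 of the genes and the highest for Pdk2 and Idh3g.

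Among the NADP-linked and cytosolic enzymes, Idh1, the cytosolic NADPH-producing isocitrate dehydrogenase, changed most of all 32 genes. Idh1 (ENSRNOG00000015020, chromosome 9 from 71882105 to 71900044 in the deposited coordinates) read 672, 596, 335 and 513 FPKM in Control, 89.5, 99.3, 123 and 102 in PCOS and 499, 273, 670.2 and 306 in PCOS-MV. The highest PCOS library was below the lowest library of either other group. Idh1 fell by 2.31 in log2 units (standard error 0.21, adjusted p = 1.08e-04), from 529 ± 145 to 103 ± 14.0 FPKM (SD, n = 4), a 5.12-fold lower mean. It rose by 1.98 in log2 units (standard error 0.27, adjusted p = 0.00150) in PCOS-MV vs PCOS, to 437 ± 185 FPKM (SD, n = 4). Idh1 made up 17.4 to 25.8% of the summed FPKM of the 32 genes in Control, 5.58 to 8.45% in PCOS and 15.7 to 26.7% in PCOS-MV. These shares were computed after the values were seen. The luteal marker sum had a median of 6038 FPKM in Control, 2356 in PCOS and 4682 in PCOS-MV, and PCOS and PCOS-MV libraries overlapped. Among the PCOS-MV libraries the sum was 6929 and 6400.3 FPKM in replicates 1 and 3, where Idh1 was highest, and 2964 and 2961 FPKM in replicates 2 and 4. Single luteal markers differed: Lhcgr rose by 1.39 in log2 units in PCOS vs Control and fell by 1.89 in PCOS-MV vs PCOS, opposite to Idh1. Prlr was called in neither, and Cyp11a1 and Scarb1 were not called in PCOS-MV vs PCOS. Control replicate 3 held the lowest Idh1 and the lowest luteal sum of its group. Among the PCOS libraries the highest and lowest went the other way: replicate 1, with the highest luteal sum (3467 FPKM), had the lowest Idh1, and replicate 3, with the lowest sum (1828 FPKM), had the highest. The part of the luteal markers in the Idh1 values was not tested.

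The mitochondrial counterpart Idh2 was called in neither comparison, at 46.8 ± 2.35, 53.6 ± 6.08 and 43.0 ± 6.20 FPKM (SD, n = 4), and it overlaps Zfp710 on the opposite strand. Idh1 exceeded Idh2 6.80 to 13.9 times in Control, 1.51 to 2.54 times in PCOS and 5.53 to 19.4 times in PCOS-MV. Aco1, which encodes the cytosolic aconitase that also serves as an iron regulatory protein, had 32.9 to 39.1 FPKM in Control, 38.7 to 47.2 in PCOS and 35.8 to 42.6 in PCOS-MV and was not called.

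The malic enzymes turn malate into pyruvate. Mitochondrial Me2 read 42.5, 41.8, 33.5 and 39.7 FPKM in Control, 37.8, 27.7, 27.5 and 27.2 in PCOS and 31.3, 42.2, 36.4 and 29.4 in PCOS-MV. PCOS replicate 1 lay inside the Control range, and the other 3 PCOS libraries lay below it. Me2 fell by 0.39 in log2 units (standard error 0.12, adjusted p = 0.0490) in PCOS vs Control (exact two-sided permutation test, p = 0.0571), a call kept in 2 of 8 runs that left out a library, and its log2 fold change was 0.21 (standard error 0.14, adjusted p = 0.324) in PCOS-MV vs PCOS. Cytosolic Me1, the most abundant member after Idh1 in Control, and mitochondrial Me3 were called in neither comparison. Me1 read 623, 213, 333 and 123 FPKM in PCOS-MV, against 248 to 385 in Control and 230.1 to 300.1 in PCOS. Me3 read 18.4, 13.8, 47.1 and 18.9 FPKM in PCOS-MV, against 14.8 to 35.3 in Control and 14.4 to 16.0 in PCOS. For both genes the 4 PCOS-MV libraries spread more widely than the PCOS libraries.

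**Figure D3:**
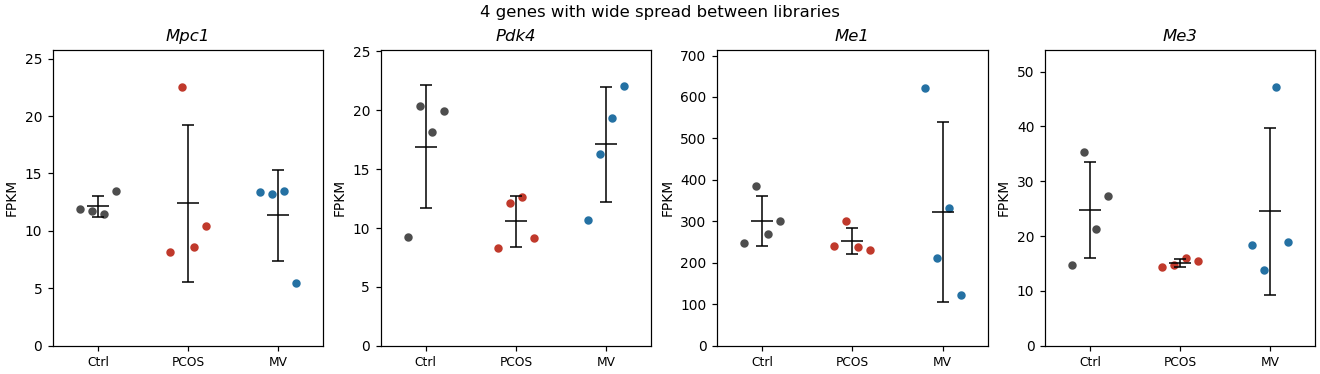
FPKM per library (vertical axes, from 0) of Mpc1, Pdk4, Me1 and Me3 in the Control (Ctrl), PCOS and PCOS-MV (MV) groups, with points in the order of replicates 1 to 4 and black bars for the mean and SD of 4. Single libraries set the spread: PCOS replicate 2 (22.6 FPKM) and PCOS-MV replicate 4 (5.42 FPKM) for Mpc1, and PCOS-MV replicate 3 (47.1 FPKM) for Me3.

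The steps from succinyl-CoA to oxaloacetate start with succinyl-CoA ligase, in which the shared subunit Suclg1 pairs with Sucla2 in the ADP-forming enzyme or with Suclg2 in the GDP-forming one. Sucla2 (ENSRNOG00000017481) read 76.6, 93.7, 114 and 107 FPKM in Control, 47.5, 43.6, 44.5 and 41.8 in PCOS and 80.8, 69.1, 117 and 83.6 in PCOS-MV. The PCOS values spanned under 6 FPKM and lay below all the others. Sucla2 fell by 1.11 in log2 units (standard error 0.12, adjusted p = 3.18e-04), a 2.21-fold lower mean, and rose by 0.94 in log2 units (standard error 0.15, adjusted p = 0.00249) after MV. Suclg1 had 56.6, 50.5, 39.5 and 46.3 FPKM in Control, 41.3, 42.0, 37.0 and 43.6 in PCOS and 52.6, 49.2, 51.1 and 56.0 in PCOS-MV. It was not called in PCOS vs Control, at -0.22 (standard error 0.11, adjusted p = 0.178), where the groups overlapped, and it rose by 0.34 in log2 units (standard error 0.07, adjusted p = 0.0113) in PCOS-MV vs PCOS. Without Control replicate 3, Suclg1 was also called in PCOS vs Control, at -0.31 (adjusted p = 0.0400). Suclg2 was called in neither, with log2 fold changes of -0.17 (standard error 0.14, adjusted p = 0.383) and -0.27 (standard error 0.19, adjusted p = 0.341). Sucla2 relative to Suclg2 was 0.528 to 1.25 in Control, 0.393 to 0.468 in PCOS and 0.619 to 1.37 in PCOS-MV. All 4 PCOS ratios lay below the others.

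Fh, which encodes fumarase, was called in neither comparison, at 35.7 ± 6.39, 28.9 ± 2.07 and 34.1 ± 6.36 FPKM (SD, n = 4). With all libraries in, Fh stood at a log2 fold change of -0.28 (standard error 0.13, adjusted p = 0.135) in PCOS vs Control, and at -0.38 (adjusted p = 0.0260), a call, without Control replicate 3. The mitochondrial malate dehydrogenase gene Mdh2 read 135, 122, 98.7 and 97.3 FPKM in Control, 89.6, 83.1, 76.4 and 84.2 in PCOS and 129, 111, 114 and 121 in PCOS-MV. Mdh2 fell by 0.42 in log2 units (standard error 0.12, adjusted p = 0.0271) in PCOS vs Control, a call kept in 4 of 8 runs that left out a library, and rose by 0.50 in log2 units (standard error 0.08, adjusted p = 0.00272) in PCOS-MV vs PCOS, a call kept in all 8. The cytosolic gene Mdh1, its partner in the malate-aspartate shuttle, had log2 fold changes of 0.08 (standard error 0.12, adjusted p = 0.652) and -0.09 (standard error 0.09, adjusted p = 0.489). The ratio of Mdh1 to Mdh2 varied little within a group. It was 1.03 to 1.09 in Control, 1.48 to 1.58 in PCOS and 0.971 to 1.04 in PCOS-MV. Idh3g relative to Idh3a, computed after the values were seen, was 1.40 to 1.67 in Control, 3.60 to 3.98 in PCOS and 1.21 to 1.59 in PCOS-MV. Each of these ratios uses 2 genes of the same library, so a scaling of the whole library cancels out of it.

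**Figure D4:**
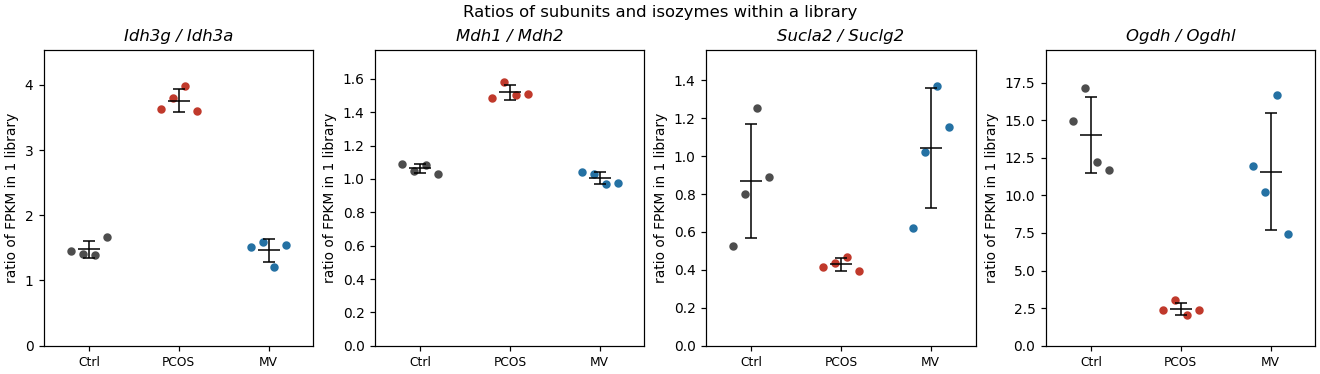
Ratio of the FPKM of 2 genes within 1 library (vertical axes, from 0) for Idh3g to Idh3a, Mdh1 to Mdh2, Sucla2 to Suclg2 and Ogdh to Ogdhl, in the Control (Ctrl), PCOS and PCOS-MV (MV) groups, with points in the order of replicates 1 to 4 and black bars for the mean and SD of 4. In the 4 panels the PCOS libraries do not overlap those of the other groups, with Mdh1 to Mdh2 between 1.48 and 1.58 in PCOS and between 0.971 and 1.09 elsewhere.

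Other genes of the pathway were taken as a list of 30 (succinate dehydrogenase, lipoylation, lactate dehydrogenases, mitochondrial carriers, aminotransferases and the entry of other fuels), of which 28 were tested. Against Control, 2 were higher and 6 lower in PCOS, 28.6% of the list against 27.4% of all genes, and in PCOS-MV vs PCOS 6 were higher and 3 lower, 32.1% against 25.7%. The median log2 fold changes were -0.08 and 0.05, against -0.03 and 0.03 over all genes. Where a pair of values follows, PCOS vs Control comes before PCOS-MV vs PCOS. Of succinate dehydrogenase, Sdhc alone was called: it fell by 0.27 in log2 units (standard error 0.07, adjusted p = 0.0246) and rose by 0.29 in log2 units (standard error 0.07, adjusted p = 0.0163). The Sdhc calls were kept in 4 and 7 of the 8 runs that left out 1 library. The other subunit genes of the enzyme had log2 fold changes of -0.12 and -0.07 (Sdha), -0.08 and -0.14 (Sdhb), and 0.06 and 0.06 (Sdhd).

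The lactate dehydrogenase genes, whose products interconvert pyruvate and lactate, moved in opposite directions. Ldhb read 80.8, 82.3, 102 and 75.0 FPKM in Control, 167, 155, 151 and 160.2 in PCOS and 99.7, 85.3, 84.4 and 99.4 in PCOS-MV. It rose by 0.90 in log2 units (standard error 0.10, adjusted p = 3.50e-04) in PCOS vs Control and fell by 0.78 in log2 units (standard error 0.08, adjusted p = 4.92e-04) in PCOS-MV vs PCOS. Ldha fell by 0.52 in log2 units (standard error 0.17, adjusted p = 0.0496) in PCOS vs Control, where the groups overlapped (p = 0.0857 by exact two-sided permutation). Of 8 runs that left out a library, 1 kept this call. Ldha rose by 0.82 in log2 units (standard error 0.20, adjusted p = 0.0174) in PCOS-MV vs PCOS, a call kept in all 8. Genes for the entry of acetate and ketone bodies were also called. Acss1, the mitochondrial acetyl-CoA synthetase, fell by 1.02 in log2 units (standard error 0.16, adjusted p = 0.00210) and rose by 0.87 in log2 units (standard error 0.22, adjusted p = 0.0210). Oxct1, which activates ketone bodies, fell by 0.37 in log2 units (standard error 0.07, adjusted p = 0.00718) in PCOS vs Control and had 0.04 (standard error 0.12, adjusted p = 0.83) in PCOS-MV vs PCOS. Slc25a13, an aspartate-glutamate carrier of the malate-aspartate shuttle, fell by 0.57 in log2 units (standard error 0.12, adjusted p = 0.00732) and rose by 0.41 in log2 units (standard error 0.10, adjusted p = 0.0174). Got2, the mitochondrial aspartate aminotransferase, rose by 0.42 in log2 units (standard error 0.07, adjusted p = 0.00323) in PCOS-MV vs PCOS, where Lias, which makes the lipoyl groups that Dlat and Dlst carry, fell by 0.33 in log2 units (standard error 0.10, adjusted p = 0.0429). The Lias call was kept in 2 of 8 runs that left out a library, and the PCOS-MV vs PCOS call of Acss1 in 5.

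A list of 16 general mitochondrial genes (import, chaperones, transcription, proteases, cytochrome c) was read beside the 32 members. Against Control, 3 were lower and 0 higher in PCOS (Tufm, Tomm20, Hspd1), 18.8% of the list against 27.4% of all genes, with a median log2 fold change of -0.17 against -0.03. The calls of Tufm and Hspd1 were each kept in 2 of 8 runs that left out a library, and that of Tomm20 in all 8. In PCOS-MV vs PCOS 5 were higher and 0 lower (Hspe1, Tomm40, Tomm20, Cycs, Hspd1), 31.2% against 25.7%, with a median of 0.23 against 0.03. Here the calls of Hspe1 and Hspd1 were kept in all 8 runs, that of Tomm40 in 4, and those of Tomm20 and Cycs in 2. Tfam, the factor that packs and transcribes mitochondrial DNA, had log2 fold changes of -0.01 and 0.07, and all 12 of its values were between 21.2 and 25.3 FPKM. The part of these general mitochondrial genes' shift in the members' values was not tested.

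Regulators known to act on the kinase genes were a list of 8, of which 6 were tested. Ppara, the fatty acid receptor, read 2.90, 3.72, 4.14 and 3.56 FPKM in Control, 11.6, 9.53, 9.47 and 12.2 in PCOS and 5.29, 2.90, 2.38 and 2.98 in PCOS-MV. It rose by 1.35 in log2 units (standard error 0.12, adjusted p = 9.15e-05) and fell by 1.45 in log2 units (standard error 0.19, adjusted p = 0.00115). Esrra, an orphan receptor known to drive genes of oxidative metabolism, read 18.4, 18.8, 18.7 and 18.2 FPKM in Control, 10.9, 9.96, 10.5 and 10.9 in PCOS and 21.4, 15.8, 23.1 and 16.9 in PCOS-MV. Esrra fell by 0.76 in log2 units (standard error 0.06, adjusted p = 5.61e-05) and rose by 0.80 in log2 units (standard error 0.12, adjusted p = 0.00224). In PCOS-MV vs PCOS, Foxo1 fell by 0.83 in log2 units (standard error 0.19, adjusted p = 0.0151) and Hif1a rose by 0.29 in log2 units (standard error 0.07, adjusted p = 0.0139). Their values in PCOS vs Control were 0.08 (standard error 0.21, adjusted p = 0.808) and -0.15 (standard error 0.09, adjusted p = 0.231).

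In PCOS-MV vs Control, 0 of the 32 members were called by limma, 0 had an unadjusted p under 0.05 and 0 had groups that did not overlap. Over all genes tested, 0.00745% were called (1 of 13430), 8.5% had an unadjusted p under 0.05 and 5.1% did not overlap. The median log2 fold change of the members was -0.09, against -0.0037 over all genes, and 23 of the 32 values were negative. The values that lay farthest from 0 were those of Pc, at -0.44 (standard error 0.27, adjusted p = 0.651), Suclg2, at -0.44 (standard error 0.22, adjusted p = 0.619) and Idh1, at -0.33 (standard error 0.33, adjusted p = 0.768). Dlst stood at -0.04 (standard error 0.21, adjusted p = 0.968), Sucla2 at -0.17 (standard error 0.18, adjusted p = 0.783) and Idh3g at 0.04 (standard error 0.09, adjusted p = 0.898). With standard errors of this size, differences from Control that limma could not detect in 4 against 4 libraries may be present.

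The groups also differed in how far their libraries spread. The coefficient of variation of the 32 genes had a median of 15.8% in Control, 8.2% in PCOS and 16.5% in PCOS-MV. It exceeded 25% for 5 genes in Control, for 1 in PCOS (Mpc1) and for 12 in PCOS-MV, with the highest value, 67.4%, for Me1 in PCOS-MV. These spreads are descriptions and were not compared by a test.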

How the data were processed

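Ovarian RNA of 12 rats, 4 per group, was sequenced in paired reads, and groups and replicate numbers came from the sample labels. Per the study's methods, the authors removed adapter and low-quality reads, aligned the rest with HISAT2, counted fragments with featureCounts and deposited FPKM per gene, whereas the submitters' processing notes name STAR 2.5.1b and HTSeq 0.6.0. The genome build is not given in the sources used here, nor whether counting used strand. The methods give 4 rats per group for sequencing but fewer replicates for the authors' test. The deposited table also holds 10 columns of group means and of the authors' own fold changes and p-values, which were not used here. Its 26928 transcript lines repeat the values of their gene, and 1 line per gene was kept, giving 19730 genes.

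The values are not counts, so log2(FPKM + 1) was compared with limma 3.58.1 (R 4.3.3; lmFit, eBayes with trend) between 2 groups of 4 at a time, over 13430 genes that averaged 1 FPKM or more, with Benjamini-Hochberg adjustment over all of them and calls at an adjusted p under 0.05. This scale understates the change of low genes. For single genes, all 70 divisions of 8 libraries gave an exact two-sided permutation p, at the smallest 0.0286. The test was also run on simulated data with independent noise and far fewer changed genes than were called here, and no result rests on that run. Fold ratios are of mean FPKM. Depth was estimated from the FPKM steps of low values in single-transcript genes, where 34.2% to 40.7% of values lay within 0.02 of a whole fragment step at the depth chosen and 2.2% to 2.6% at the median depth tried. It covers counting error only. Tables were made with Python 3.11.15, pandas 2.3.3 and numpy 2.4.6, and plots with matplotlib 3.10.9.

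Every member is named by role. Values of all 12 libraries are given for members called in PCOS vs Control or PCOS-MV vs PCOS and for the most abundant member of a role with none called, and list genes are named where called, apart from a result not reported here. Mpc1, Pdk4, Me1 and Me3, and Sdha, Sdhb, Sdhd and Tfam among list genes not called, were added after their values were seen. The members, lists and tests were chosen with earlier results of these data known. Alternatives were a pseudocount of 0.1, no filter, 1 model for 12 libraries, median-ratio and TPM scaling, the replicate number as a block, and each library left out.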

Additional observations from a re-analysis of the deposited data

Results flagged for a closer look

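In 7 of the 96 sets of 4 values (32 genes in 3 groups), 1 library lay farther from the other 3 than Dixon's 95% limit allows, where chance gives about 4.8. Mpc1, a pyruvate carrier subunit, was flagged in 2 groups: PCOS replicate 2 read 22.6 FPKM against 8.14 to 10.4 in the other PCOS libraries, and PCOS-MV replicate 4 read 5.42 FPKM against 13.2 to 13.5. PCOS replicate 1 was the high library for 3 genes. Pdhb read 30.8 FPKM there against 27.1 to 27.3, Dld read 69.4 against 59.4 to 60.2, and Me2 read 37.8 against 27.2 to 27.7. The luteal marker sum of PCOS replicate 1, 3467 FPKM, was also the highest of its group, and its part in these values was not tested. The malic enzyme gene Me1 read 300.1 FPKM in PCOS replicate 2 against 230.1 to 241 in the other PCOS libraries. Me3 read 47.1 FPKM in PCOS-MV replicate 3 against 13.8 to 18.9 in the other PCOS-MV libraries.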

How the results depend on the processing

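The count of members called ranged from 13 to 19 with 1 library left out and from 14 to 17 under the other alternatives in PCOS vs Control (16 as reported), from 10 to 15 and from 13 to 14 in PCOS-MV vs PCOS (13 as reported), and was 0 in every run of PCOS-MV vs Control. With the replicate number as a block the counts were 17, 13 and 0. In PCOS vs Control, Pdhx and Pdk4 were then called (limma adjusted p = 0.0409 and 0.0456) and Pdk3 was not (0.0916), and in PCOS-MV vs PCOS Pdk4 was called (0.0407) and Pdha1 was not (0.0689). Same-numbered libraries had correlated deviations of -0.033 to 0.024, 0.035 to 0.172 and -0.053 to 0.216 in the 3 comparisons. Of the 4 same-numbered pairs of PCOS-MV vs PCOS, 3 (0.101, 0.172 and 0.136) exceeded every pair of unlike numbers, and replicate 4 (0.035) did not. The labels give the numbers no shared source, and not every pair exceeded 0.1, so the numbers were not taken as pairs. In PCOS vs Control, 13 calls held in all 14 runs, and those of Pdk3, Mdh2 and Me2 did not. In PCOS-MV vs PCOS 10 held, and those of Pdha1, Pdhb and Pdk2 did not. Members not called as reported were called in at least 1 run: 8 in PCOS vs Control (Cs, Fh, Suclg1 and Pdp2 without Control replicate 3, Me3 and Pdk4 without Control replicate 1, Mpc1 without PCOS replicate 2, Pdhx and Pdk4 under the block) and 5 in PCOS-MV vs PCOS (Pc, Suclg2 and Pdk4 without PCOS-MV replicate 1, Ogdh without PCOS-MV replicate 4, Idh2 with median-ratio scaling, Pdk4 under the block). No called member changed direction in these runs. The smallest log2 fold change called was 0.27 (Pdhb), and the cause of each lost call was not tested.

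Among members not called, the log2 fold change turned in sign with 1 library left out as follows. In PCOS vs Control it ranged from -0.39 to 0.0628 for Mpc1 and from -0.21 to 0.11 for Pc, which was 0.0066 with median-ratio scaling. In PCOS-MV vs PCOS the ranges were -0.22 to 0.23 for Mpc1, -0.11 to 0.17 for Pdhx, -0.16 to 0.0138 for Pdk1, -0.0356 to 0.23 for Pdp2 and -0.28 to 0.49 for Me1. In PCOS-MV vs Control they were -0.19 to 0.0462 for Cs, -0.20 to 0.11 for Dlst, -0.18 to 0.0311 for Fh, -0.0069 to 0.11 for Idh3g, -0.0851 to 0.0964 for Mdh1, -0.52 to 0.25 for Me1, -0.46 to 0.11 for Me3, -0.26 to 0.13 for Mpc1, -0.0355 to 0.0506 for Pdk2, -0.13 to 0.0049 for Pdk3, -0.22 to 0.23 for Pdk4 and -0.0737 to 0.0523 for Pdp1, and Pdk2 was at -0.0071 with TPM scaling.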
